A study of Homo sapiens with 21 samples.

Results

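The replication-dependent histone genes were followed through PAR-CLIP libraries of 5 RNA-binding proteins, and were chosen by name: every gene whose deposited name began with HIST1H, HIST2H, HIST3H or HIST4H in any list of bound clusters. The rule found 54 genes of 18455 named in the series, with 601 clusters and 42036 reads. By name, 4 of the genes belong to the linker histones (H1) and 50 to the core histones, 13 of them H2A, 16 H2B, 11 H3 and 10 H4. RefSeq (GRCh38.p14) holds 90 genes with such a name, 71 of them protein coding, and all 54 names were matched to it. HIST2H2BC and HIST2H2BD, counted with H2B, are pseudogenes there. No gene had a cluster in all 17 libraries, 50 had one in at least 1 of the 6 AGO2 libraries, 9 had one in all 6, and 11 were seen in a single library.

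All libraries came from Flp-In T-REx 293 cells, an established line of human embryonic kidney origin with a single site for inserting a transgene, carrying a stably integrated FLAG-HA tagged copy of the protein studied. The cells were fed 4-thiouridine (100 uM for 8 to 12 h, but 250 uM for 2 h for U2AF1), a uridine analogue that crosslinks under long-wave ultraviolet light and is then read as C in place of T. Bound RNA was trimmed with RNase, recovered through the tag and labelled with either a fluorescent adapter or a radioactive end label. Fluorescent libraries were made for AGO2 with RNase I at 0.15 and 1.5 U/ul, CPSF1 with RNase I at 0.5 U/ul, FUBP3 and KHSRP with RNase I at 0.15, 0.5 and 1.5 U/ul, and U2AF1 with RNase A and T1 at 1.5 and 15 U/ml. Radiolabelled libraries were made with RNase T1, at 0.5 U/ul for FUBP3 and KHSRP and at 1 U/ul for AGO2, the last in 2 libraries with a urea gel step (A and B) and 2 without it. Each other condition had 1 library, so the differences between those conditions carry no replicate check. Depth was known only as reads in clusters, from 75383 (U2AF1, 15 U/ml) to 2172248 (KHSRP, 0.15 U/ul). Of 6 genes typical of 293 cells between 0 and 5 had a cluster in a library, and none of 5 marker genes of other cell types had one in any.

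Replication-dependent histone mRNAs are made during S phase and are the metazoan mRNAs that end without a poly(A) tail. Their 3' end is cut a few nucleotides after a conserved stem-loop, which is bound by SLBP, by a machinery that the U7 small nuclear RNA brings to the precursor. The core histones form the spool of the nucleosome, and the linker histones bind the DNA where it enters and leaves. Of the proteins studied, AGO2 carries microRNAs, CPSF1 is a subunit of the complex that reads the poly(A) signal of other pre-mRNAs, FUBP3 and KHSRP are KH-domain proteins, and U2AF1 recognises the AG that closes an intron.

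The sequences around the stem-loop are shown because most histone reads of fluorescent AGO2 and of CPSF1 lay in clusters that hold it. All reads of such a cluster are counted with the stem-loop, and their place within the cluster was not known. Each line gives the last bases of a cluster in hg38, counted from 1, read 5′ to 3′ on the gene's strand, with the stem-loop in capitals. The last base printed is the last base of the cluster.
HIST1H4H, AGO2, chr6:26285127-26285154, minus strand: caaccaaaGGCCCTTTTCAGGGCCgccc
HIST1H4B, AGO2, chr6:26026897-26026924, minus strand: cttccaatGGCCCTTTTCAGGGCCgccc
HIST1H3B, AGO2, chr6:26031593-26031620, minus strand: aacccaaaGGCTCTTTTCAGAGCCaccc
HIST1H1E, AGO2, chr6:26157087-26157114, plus strand: aacccaaaGGCTCTTTTCAGAGCCaccc
HIST1H1C (cluster deposited as HIST1H2BB), AGO2, chr6:26055740-26055767, minus strand: acccaaaaGGCTCTTTTCAGAGCCacca
HIST2H2BE, AGO2, chr1:149886185-149886211, minus strand: actccaaaGGCTCTTTTCAGAGCCacc
HIST1H2AG, CPSF1, chr6:27133507-27133533, plus strand: aaaccaacGGCTCTTTTCAGGGCCacc
HIST1H2BD, CPSF1, chr6:26158579-26158602, plus strand: atcccaaaGGCTCTTTTAAGAGCC
HIST1H4H, FUBP3, chr6:26285128-26285154, minus strand: caaccaaaGGCCCTTTTCAGGGCCgcc
HIST1H2BJ, KHSRP, chr6:27132317-27132344, minus strand: accctaacGGCTCTTTTAAGAGCCaccc

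The 90 histone-named clusters with a stem-loop held 30070 reads and 7 forms of it. The form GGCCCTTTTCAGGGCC took 46.8% of these reads and lay in 8 genes, all H4. The form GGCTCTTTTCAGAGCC took 38.3% and lay in 18 genes of the H1, H2A, H2B and H3 families. The form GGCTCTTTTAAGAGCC, found in H1 and H2B genes, took 10.6%, and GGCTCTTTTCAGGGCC, seen in HIST1H2AG alone, took 3.58%. The bases printed for HIST1H3B and HIST1H1E are the same letter for letter, so reads that cover no more than these bases cannot be placed on either gene. Clusters that share a stretch of 20 bases with a cluster of another histone gene held 88.5% and 90.2% of the histone reads of AGO2 at 0.15 and 1.5 U/ul, and 14.8% to 30.7% in the 4 radiolabelled AGO2 libraries. No cluster of fluorescent AGO2 was made up of such shared stretches alone, while in radiolabelled AGO2 those that were held 2.98% to 5.22%. The split between genes is therefore uncertain for reads that cover only shared bases, and how many reads do so was not known.

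Of the 17 libraries, both fluorescent AGO2 libraries had the highest histone share of reads. It was 4.78% at 0.15 U/ul (exact Clopper-Pearson 95% interval 4.71 to 4.86, which, as all intervals here, covers counting error only) and 4.80% at 1.5 U/ul (4.73 to 4.88). In radiolabelled AGO2 it was 0.422% and 0.505% for the no-gel pair and 0.419% and 0.445% for the gel pair. CPSF1 had 0.473% (0.442 to 0.506), a value within the range of the radiolabelled AGO2 libraries. FUBP3 had 0.0447%, 0.0514% and 0.0487% at rising RNase I dose. KHSRP had 0.0122%, 0.0125% and 0.0415%, and U2AF1 0.0902% and 0.0305%. The histone share of AGO2 and CPSF1 libraries thus lay above that of every FUBP3, KHSRP and U2AF1 library. In the FUBP3 and KHSRP libraries made with RNase T1, where 8 and 0 reads carried a histone name, genes were taken from RefSeq spans. The histone share there was 0.0239% and 0.00476%, the latter from 1 cluster of 6 reads in HIST1H3B. In bulk libraries such as these, fewer cells in S phase, less histone RNA per cell and fewer proteins bound per RNA cannot be told apart.

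Splitting the histone reads at the stem-loop separated the AGO2 libraries by protocol. Stem-loop clusters held 4.31% and 4.44% of all reads in the fluorescent AGO2 libraries, 0.100% and 0.0643% in the radiolabelled no-gel pair, and 0.0169% and 0.0503% in the gel pair. Histone clusters lacking the stem-loop held 0.477% and 0.364% in the fluorescent libraries, 0.322% and 0.440% in the no-gel pair, and 0.402% and 0.394% in the gel pair. Outside the stem-loop clusters the fluorescent and radiolabelled AGO2 libraries thus covered overlapping ranges, and the difference in the histone share lay in the stem-loop clusters. RNase I against T1, fluorescent against radioactive label, and the annotation of the files all changed together between these libraries and cannot be told apart. Clusters with a stem-loop but no histone name had 0 reads in both radiolabelled libraries without the gel and 6 and 5 reads in those with it, so few stem-loop reads were missed there through naming. CPSF1 had 0.389% of its reads in stem-loop clusters and 0.0842% in other histone clusters.

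**Figure D1:**
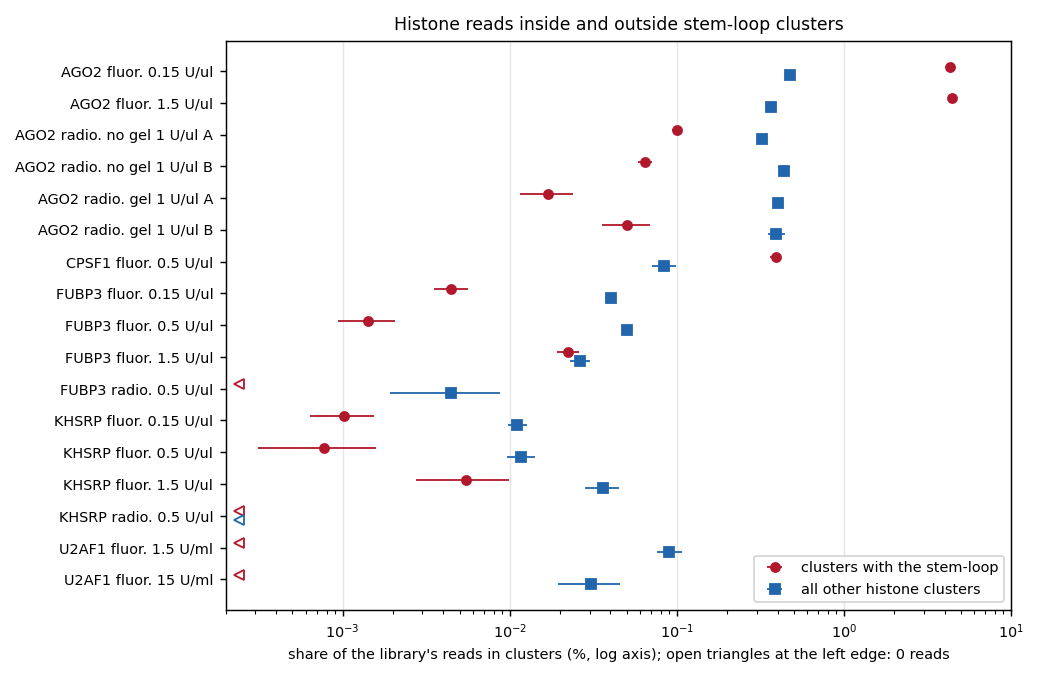
Share of each library's reads in histone clusters that contain the stem-loop (red circles) and in all other histone clusters (blue squares), in percent on a log axis, with exact 95% intervals where they are wider than the symbol; fluor. and radio. are the fluorescent and radioactive labels. The blue squares of the 6 AGO2 libraries lie between 0.322% and 0.477%, while the red circles run from 0.0169% to 4.44%.

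Within the histone reads, the stem-loop share was 90.0% (89.5 to 90.5) and 92.4% (92 to 92.8) in fluorescent AGO2 and 82.2% (79.5 to 84.7) in CPSF1. In radiolabelled AGO2 it was 23.7% and 12.7% (no gel) and 4.04% and 11.3% (gel). FUBP3 gave 9.96%, 2.76% and 45.8% at 0.15, 0.5 and 1.5 U/ul, and KHSRP 8.33%, 6.19% and 13.3%. FUBP3 thus had its highest stem-loop share at the highest RNase dose, also by RefSeq spans (15.8%, 12.0% and 59.6%). By deposited names the FUBP3 values rest on 2, 3 and 5 clusters with 75, 28 and 181 reads. At 1.5 U/ul 1 cluster of HIST1H4H held 110 of the 181 reads, from 19 distinct sequences. For KHSRP the order of the doses depended on the naming: by RefSeq spans the share was highest at the lowest dose (18%, 10.6% and 14.5%), and the value at 1.5 U/ul rests on 11 reads in 2 clusters (interval 6.81 to 22.5). U2AF1 had no stem-loop cluster among 133 and 23 histone reads.

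None of the 90 stem-loop clusters reached more than 4 nucleotides past the stem-loop. In fluorescent AGO2, 80.3% and 77.6% of the stem-loop reads were in clusters that ended 4 nucleotides after it and 19.2% and 22.0% in clusters that ended 3 after it. In CPSF1 no cluster ended 4 after it, 73.6% of reads were in clusters that ended 3 after it and 16.8% in clusters that ended at its last base. Among genes with a RefSeq span of at most 1000 nucleotides, the median cluster end lay 2 nucleotides inside the RefSeq 3' end in AGO2 at both doses and in CPSF1. The clusters thus stopped near the annotated 3' end. The length before the stem-loop differed more: the median stem-loop cluster was 64.5 and 69 nucleotides long in fluorescent AGO2 and 36.5 in CPSF1.

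**Figure D2:**
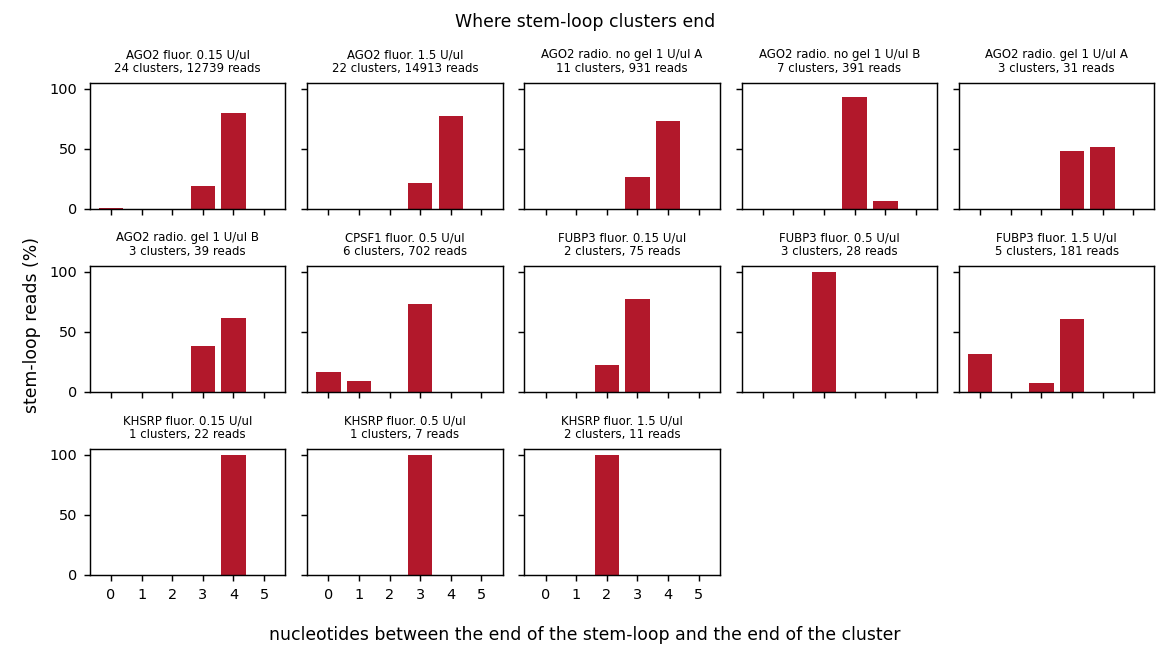
Percent of stem-loop reads (y axis) by the number of nucleotides between the end of the stem-loop and the end of the cluster (x axis), in the 13 libraries with such a cluster; titles give clusters and reads. Every bar lies between 0 and 4 nucleotides, with 4 leading in fluorescent AGO2 (80.3% and 77.6%) and 3 in CPSF1 (73.6%).

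The stem-loop sequence was close to exclusive to histone genes among all clusters. Of 855812 clusters in the series 117 held one of the forms searched, and 90 of these carried a histone name. In the 13 libraries with hg38 coordinates, 89 of 91 such clusters carried a histone name or lay in a RefSeq histone span. The exceptions were H2AFX, the H2A.X gene, whose mRNA can also end at a stem-loop (47 reads in AGO2 at 0.15 U/ul), and CTBP2, a transcriptional corepressor (6 reads).

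T-to-C conversion was lower in stem-loop clusters than in well-covered clusters of other genes in fluorescent AGO2, CPSF1 and radiolabelled AGO2 without the gel. Over clusters of at least 50 reads, the median converted fraction of stem-loop clusters was 0.496 in AGO2 at 0.15 U/ul (20 clusters), against 0.624 for 168 clusters outside histone genes and short noncoding RNAs. At 1.5 U/ul the medians were 0.579 and 0.627. In CPSF1 the 5 stem-loop clusters ranged from 0.229 to 0.427, with a median of 0.302, against 0.596 for 65 clusters outside them. In radiolabelled AGO2 without the gel the medians were 0.600 and 0.444, over only 5 and 3 clusters, against 0.838 and 0.837. Histone clusters without the stem-loop had medians of 0.797 and 0.783 there, and of 0.665 and 0.601 in fluorescent AGO2 at 0.15 and 1.5 U/ul. FUBP3 had 1 stem-loop cluster of that size at 0.15 U/ul (0.655 against 0.603) and 1 at 1.5 U/ul (0.227 against 0.590). The clusters of a library share its depth and conversion rate, so these values are a description and were not tested.

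Linker histones held a small part of the fluorescent AGO2 histone reads by the deposited names, 0.565% (0.449 to 0.703) at the lower and 4.60% (4.28 to 4.93) at the higher RNase I dose. The value depended on the naming. At each dose 2 clusters deposited as introns of HIST1H2BB, with 1005 and 971 reads in sum, lay inside the RefSeq span of HIST1H1C, a linker histone, on its strand. In each pair 1 cluster, with 922 and 910 of these reads, reached over its stem-loop. By RefSeq spans, an alternative chosen after seeing the data, linker histones held 7.64% and 10.2%. Radiolabelled AGO2 gave 9.73% and 9.54% (no gel) and 15.8% and 11.6% (gel), and CPSF1 had 1.29% (0.645 to 2.29). By RefSeq spans fluorescent AGO2 lay nearer to radiolabelled AGO2, for which only deposited names could be used, and CPSF1 stayed lower at 1.16%. HIST1H1E, a main linker histone of dividing cells, had 72 and 708 reads in fluorescent AGO2, 185, 119, 51 and 22 in radiolabelled AGO2 and 11 in CPSF1. HIST1H1C had 8 and 34 reads by the deposited names, and 145, 151, 70 and 18 in radiolabelled AGO2. HIST1H1D and HIST1H1A were seen by name in the radiolabelled libraries without the gel only, with 36 and 23 reads and with 16 reads. In fluorescent AGO2, unnamed stem-loop clusters of 58 and 47 reads lay in the RefSeq span of HIST1H1D. In that of HIST1H1A they had 20 and 35 reads.

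H4 genes led the core histones in fluorescent AGO2 and in CPSF1. H4 names took 48.0% (47.2 to 48.8) and 41.9% (41.1 to 42.6) of the histone reads of fluorescent AGO2, 54.7% (51.3 to 58.1) of CPSF1 and between 11.6% and 18.1% of radiolabelled AGO2. HIST1H4H alone had 3188 and 3777 reads in fluorescent AGO2, 70, 60, 30 and 0 in radiolabelled AGO2, and 272 in CPSF1. Its stem-loop cluster held 3146 of the 3188 reads at 0.15 U/ul and spanned chr6:26285127-26285253, 127 nucleotides that reach back over the stop codon. HIST1H4B had 1856 and 1681 reads in fluorescent AGO2, 333, 17, 0 and 33 in radiolabelled AGO2, and 136 in CPSF1. Both genes were read far more in fluorescent than in radiolabelled AGO2. HIST1H4C differed from them, with 119 and 84 reads in fluorescent and 151, 214, 17 and 16 in radiolabelled AGO2. HIST1H4A had 515 named reads at 0.15 U/ul and none at 1.5 U/ul, where an unnamed stem-loop cluster of 654 reads lay in its span, so the gap between doses was one of naming.

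H2B genes led the radiolabelled AGO2 libraries through HIST1H2BK. H2B names took 39.0%, 46.5%, 44.5% and 55.9% of radiolabelled histone reads and 24.7% and 23.7% of fluorescent ones, or 15.7% and 16% of the latter by RefSeq spans. HIST1H2BK had 1240 and 1062 reads in the no-gel pair, 252 and 159 in the gel pair, and 318 and 241 in fluorescent AGO2. Of these, 1076, 929, 252 and 146 radiolabelled reads lay in a single cluster over the start codon, 27.4%, 30.3%, 32.8% and 42.3% of all histone reads of those libraries. Counted as distinct sequences, this cluster held 175 of 1043, 252 of 1078, 106 of 357 and 85 of 221. H2B names held 29.6%, 42.0%, 41.5% and 52.5% of the distinct sequences. In fluorescent AGO2 the start codon cluster had 178 and 106 reads. HIST1H2BK was thus the most read histone gene of the 4 radiolabelled libraries. HIST2H2BE had 638 and 661 reads in fluorescent AGO2, no named cluster in radiolabelled AGO2, and 198, 302 and 97 reads in FUBP3. HIST1H2BD had 552 and 710 reads in fluorescent AGO2, 99, 147, 32 and 8 in radiolabelled AGO2 and 118 in CPSF1.

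H3 genes held 18.6% and 18.0% of fluorescent and 10.7% to 20.1% of radiolabelled AGO2 histone reads. Most of them belonged to HIST1H3B, with 2175 and 2377 fluorescent reads and 564, 430, 111 and 29 radiolabelled reads. Of its reads at 0.15 U/ul, 1963 were in the stem-loop cluster, which is 182 nucleotides long, and 134 in a cluster at the start codon. HIST1H3H had 314 and 394 fluorescent reads, 80, 27, 12 and 0 radiolabelled reads, and 45, 62 and 9 in FUBP3, where it was among the 5 most read histone genes at the 2 lower doses. In CPSF1, H3 names held 2.22% (1.34 to 3.45), below the AGO2 range. H2A genes held 8.21% and 11.8% of fluorescent and 4.93% to 13% of radiolabelled AGO2 histone reads. By RefSeq spans the fluorescent shares were 13.9% and 15%. These lay above the radiolabelled range, which was by deposited names only, so the 2 sides are not named alike. HIST1H2AH, the fifth most read histone gene of gel library A, had 20 and 0 fluorescent reads and 114, 83, 40 and 0 radiolabelled reads. HIST1H2AG had 389 and 520 fluorescent reads, 87, 54, 17 and 7 radiolabelled reads and 116 in CPSF1, where it was the fourth most read histone gene.

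**Figure D3:**
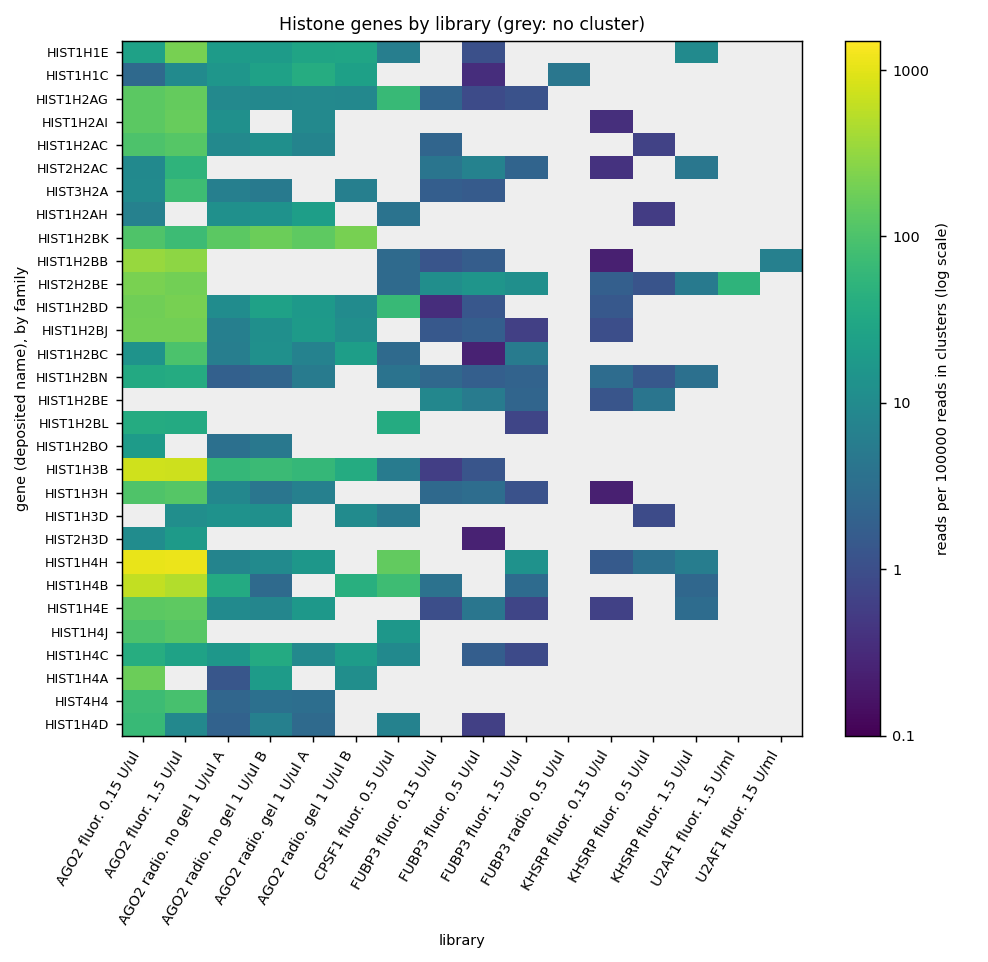
Reads per 100000 reads in clusters (colour, log scale) for the 30 histone genes with most reads (rows, ordered by family H1, H2A, H2B, H3 and H4 and by reads) in the 16 libraries with a named histone cluster (columns); grey marks no cluster. HIST1H4H, HIST1H3B and HIST1H4B are brightest in both fluorescent AGO2 libraries, and HIST1H2BK in the 4 radiolabelled ones.

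The 3' end was also taken by position alone, as the last 60 nucleotides of the RefSeq gene or the 50 after them. Clusters that overlapped it held 82.4% and 82.9% of fluorescent AGO2 histone reads and 72.0% in CPSF1. In FUBP3 they held 10.8%, 3.65% and 38.2%, and in KHSRP 20.8%, 11.5% and 13.3%. Several RefSeq spans run far beyond the stem-loop, so the stem-loop itself, an anchor chosen after the data were seen, is used here. Along the gene, the histone reads of fluorescent AGO2 outside the stem-loop clusters lay near the start and within the coding part. Clusters in the first 60 nucleotides held 5.14% and 3.31%, and clusters elsewhere in a RefSeq histone span 4.54% and 3.88%. No named cluster lay outside a RefSeq histone span. By the deposited classes, the stop codon class took 74.4% and 75.2% of fluorescent AGO2 histone reads, since long stem-loop clusters reached the stop codon, and the 3' UTR class took 82.2% in CPSF1. In the 4 radiolabelled AGO2 libraries the start codon class took 35.8%, 40.2%, 37.0% and 53.3%. There the coding class took 30.6%, 38.5%, 41.8% and 27.5%, more than the start codon in gel library A. The stop codon class took 23.8%, 14.3%, 13.2% and 5.22%, and the 3' UTR class 4.99%, 1.76%, 6.51% and 11.6%. The radiolabelled AGO2 clusters could not be placed along RefSeq genes, since their coordinates belong to another genome build.

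**Figure D4:**
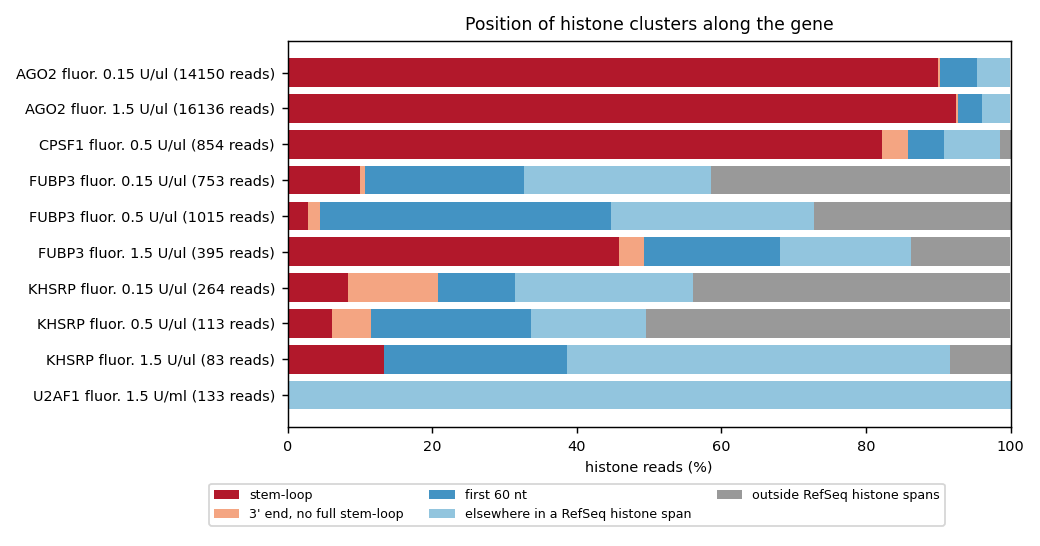
Percent of histone reads by position (stacked bars) in the 10 libraries with hg38 coordinates and at least 50 histone reads; the 3' end class is the last 60 nucleotides of the RefSeq gene without a full stem-loop. The stem-loop takes 90.0% and 92.4% in AGO2 and 82.2% in CPSF1, while clusters outside RefSeq histone spans take 41.4% of FUBP3 and 43.9% of KHSRP reads at 0.15 U/ul.

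CPSF1 had 20 histone clusters, and 6 of them with the stem-loop held 702 of 854 reads. The most read were HIST1H4H (241 reads, 28.2% of histone reads), HIST1H4B (131), HIST1H2BD (118), HIST1H2AG (116) and HIST1H2BL (67), each at the stem-loop. By RefSeq gene, 8 genes had a stem-loop cluster in CPSF1, and 7 of them had one in fluorescent AGO2 as well, which had 36 such genes over both doses (19.4% of them in CPSF1). The poly(A) signal, searched on the strand of the cluster as AATAAA or ATTAAA, was in 3 of the 20 histone clusters (15.0%), against 19.6% of all CPSF1 clusters. They were named HIST1H4J, where the cluster also held the stem-loop, and HIST1H2BN and HIST1H2BB, which lay outside RefSeq histone spans.

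FUBP3 reads were spread over introns, start codons, the 3' UTR class and, at the highest dose, stem-loop clusters. By the deposited classes, introns took 44.2%, 30.5% and 24.1% of them at rising dose. Start codons took 18.7%, 34.7% and 17.2%, and the 3' UTR 21.1%, 19.1% and 50.4%, the last with the stem-loop clusters in it. The most read histone clusters of FUBP3 at 0.5 U/ul lay over the start codons of HIST2H2AC (138 reads), HIST2H2BE (118) and HIST1H4E (79). The sequences are shown, with TGT in capitals, because 31.3% to 32.5% of all clusters of 25 to 60 nucleotides in the 3 fluorescent FUBP3 libraries held TGT at least 2 times.
HIST2H2AC, FUBP3, chr1:149886946-149886975, plus strand: gtTGTcTGTGTttaaccttgatttcagtca
HIST2H2BE, FUBP3, chr1:149886627-149886656, minus strand: TGTacTGTGTcttaccatgcctgaaccggc
HIST1H4E, FUBP3, chr6:26204621-26204650, plus strand: gctattttcgttggTGTGTtggtcaTGTct
Among FUBP3 clusters of that length, those with TGT at least 2 times without overlap were 23 of 56 (41.1%), 15 of 64 (23.4%) and 4 of 20 (20.0%) for histone clusters at the 3 doses, against 31.3%, 32.5% and 31.3% of all clusters. The histone shares thus lay on both sides of the background. HIST2H2AC had 70, 138 and 18 reads in FUBP3 at rising dose, and HIST2H2BE 33, 118 and 43 at its start codon.

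Many histone-named reads of FUBP3 and KHSRP lay outside RefSeq histone genes. Clusters outside RefSeq histone spans and the 50 nucleotides after them held 41.4%, 27.2% and 13.7% of the histone-named reads of FUBP3 and 43.9%, 50.4% and 8.43% of those of KHSRP. Among them were all clusters named HIST1H2BE or HIST1H2BN in these libraries, many of them deposited as introns. HIST1H2BE had 144, 108 and 19 reads in FUBP3, 27, 38 and 0 in KHSRP and none in AGO2 or CPSF1. Of the HIST2H2BE reads of FUBP3, 140, 155 and 54 lay in clusters deposited as introns, which fall within a long RefSeq span of HIST2H4B. In KHSRP a cluster at the start codon of HIST1H4H had 19 and 25 reads at 0.15 and 0.5 U/ul. The stem-loop cluster of HIST1H2BJ had 22 reads at 0.15 U/ul. HIST1H3D with 8 reads at 0.5 U/ul and HIST1H3E with 9 at 1.5 U/ul were also among the 5 most read histone genes of KHSRP.

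U2AF1 had 133 and 23 histone reads. At 1.5 U/ml, 70 of them lay in a cluster of HIST2H2BE deposited as a 5' splice site at the end of the coding part. Near-identical clusters of 10 reads each were named HIST2H2BC and HIST2H2BD, pseudogene copies, and HIST2H2BF had 5. The shared letters are shown with the match to GTGAGT, the start of many introns, in capitals.
HIST2H2BE, U2AF1, chr1:149886243-149886272, minus strand: cagctccaaGTGAGTccctgccgggacctg
HIST2H2BC, U2AF1, chr1:149850373-149850402, minus strand: tccaaGTGAGTccctgccgggacctggcgc
The histone genes of U2AF1 were mostly of the HIST2 group, with 30 and 18 reads for HIST2H3PS2. In the U2AF1 files 115 and 22 further reads lay unnamed in RefSeq histone spans.

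Among genes well read at both RNase I doses of AGO2, the histone genes had similar shares at the 2 doses. Of 180 genes that reached 50 reads at both doses, 3.33% were at least 2-fold higher at 1.5 U/ul and 3.33% at least 2-fold lower. Of 19 histone genes among them, 1 was higher and none lower, and the median ratio of shares was 1.05, against 1.08 over all 180. The gene above the limit was HIST1H1E, at 8.66-fold: its stem-loop cluster had 620 reads at 1.5 U/ul, and no cluster was called there at 0.15 U/ul. HIST1H2BK (0.668) and HIST1H4C (0.622) had the lowest ratios. By RefSeq gene, stem-loop clusters were called in 32 genes at 0.15 U/ul and 30 at 1.5 U/ul, of which 26 were the same (81.2% and 86.7%). In those 26 the ratio of shares ran from 0.714 to 1.54. The 6 stem-loop genes seen at 0.15 U/ul only were led by HIST1H3D (206 reads) and HIST1H4D (175), and the 4 seen at 1.5 U/ul only by HIST1H1E (620), HIST1H2BC (280) and HIST3H2A (220). The minimum of 50 reads leaves out genes that were low at either dose, and some of these differed more: HIST1H2BC had 41 and 327 named reads, HIST3H2A 29 and 259, HIST2H2AC 28 and 176, and HIST1H4D 195 and 30. The naming moved the HIST2H2AC values, which were 213 and 176 by RefSeq spans. With 1 library per dose no test was possible.

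In FUBP3, few histone genes had enough reads to compare doses. From 0.15 to 0.5 U/ul, 2.75% of 5202 genes were at least 2-fold higher and 2.04% lower, and none of 3 histone genes passed either limit: HIST1H2BE had a ratio of 0.639, HIST2H2AC 1.68 and HIST2H2BE 1.30. From 0.5 to 1.5 U/ul, 6.79% of 3798 genes were higher and 2.92% lower, and HIST2H2BE, the only histone gene compared, had a ratio of 0.783. These ratios use the deposited names. By RefSeq spans, which place the clusters deposited as introns in HIST2H4B, HIST2H2BE had 58, 147 and 43 reads at the 3 doses. In libraries of 1683771 and 1975646 reads, its share was then more than 2-fold higher at 0.5 than at 0.15 U/ul. No HIST1H2BE read lay in a histone span. The stem-loop clusters were too thin for that limit: they held 75, 28 and 181 named reads at the 3 doses, with HIST1H4H at 110 reads at 1.5 U/ul. By RefSeq spans they held 80, 109 and 263 reads, with unnamed clusters of 69 reads in HIST1H3D at 0.5 U/ul and 82 in HIST1H3B at 1.5 U/ul.

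Against the radiolabelled AGO2 libraries without the gel, 7 of 10 histone genes were at least 2-fold higher in fluorescent AGO2 at 0.15 U/ul. Over the 117 genes that reached 50 reads in all 3 of these libraries, 29.1% were higher by that limit and 33.3% lower, and no histone gene was lower. The median ratio was 11 for the histone genes and 0.964 over all 117. HIST1H4H was 123.9-fold higher, with 3188 reads against 70 and 60 in libraries of 929424 and 608223 reads. HIST1H2BJ was 21.4-fold, HIST1H4E 14.7-fold, HIST1H2AG 14.4-fold, HIST1H3B 11.2-fold, HIST1H2BD 10.7-fold and HIST1H2AC 9.89-fold higher. HIST1H4C (1.56-fold), HIST1H1E (1.23-fold) and HIST1H2BK (0.698-fold), none of which had a named stem-loop cluster in that fluorescent library, stayed within the limit. The RNase, the label and the annotation differ between these libraries and cannot be told apart.

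The urea gel step, a kind of gel that separates RNA by size, was the only comparison with replicates, 2 libraries against 2. The no-gel libraries had a histone share of 0.464% ± 0.0582 (SD, n = 2) and the gel libraries one of 0.432% ± 0.0181 (two-sided exact permutation test, p = 0.6667, where the smallest possible p is 0.33). The stem-loop share of histone reads was 18.2% ± 7.76 without and 7.67% ± 5.14 with the gel (exact permutation p = 0.33). Both gel libraries lay below both no-gel libraries in this share, which counts only clusters that hold the whole stem-loop. The deposited classes near the 3' end went both ways. Both gel libraries were lower in the stop codon class (13.2% and 5.22% against 23.8% and 14.3%). In the 3' UTR class both were higher (6.51% and 11.6% against 4.99% and 1.76%). The linker share was 9.64% ± 0.132 and 13.7% ± 2.94 (exact permutation p = 0.33), with both gel libraries above. The share of the library outside the stem-loop was 0.381% ± 0.0836 and 0.398% ± 0.00545 (exact permutation p = 1.0). The design cannot pass a threshold of 0.05 for such single values. The labels do not say whether A and B were separate cultures, so the p-values measure only the spread between these libraries.

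No histone gene was called between gel and no gel. Of 1121 genes with a cluster in all 4 libraries, edgeR's quasi-likelihood test called 3 at an adjusted p below 0.05 (0.268%), with 149 at an unadjusted p below it. Of the 9 histone genes tested none was called by edgeR or DESeq2, and none had an unadjusted p below 0.05 in either. HIST1H2BK had 1876 and 2447 TMM-scaled CPM (counts scaled to library size) without the gel and 2069 and 2644 with it, a log2 fold change of 0.12 (SE 0.26, edgeR adjusted p = 0.865). HIST1H4C had 228 and 493 without and 140 and 266 with the gel, at -0.89 (SE 0.54, edgeR adjusted p = 0.479). HIST1H1E had 280 and 274 without and 419 and 366 with the gel, at 0.51 (SE 0.35, edgeR adjusted p = 0.520). Its groups did not overlap, as was the case for 1 of the 9 histone genes and for 47.2% of all genes tested. The median log2 fold change was 0.12 over the 9 histone genes and -0.01 over all genes. Without TMM scaling, all genes shifted to a median of -0.34, and 5 of the 9 histone genes were lower with the gel in place of 3.

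**Figure D5:**
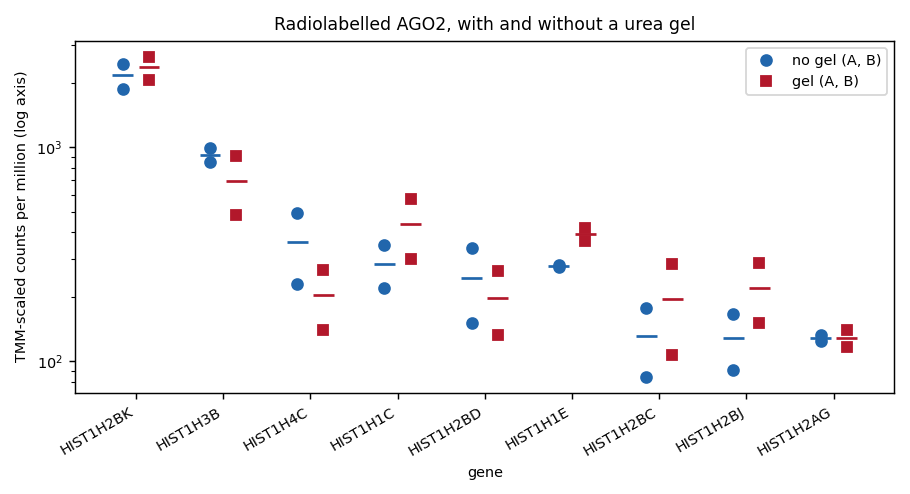
TMM-scaled CPM, or counts scaled to library size (log axis), of the 9 histone genes tested in radiolabelled AGO2, for each library without the gel (blue circles) and with it (red squares), with bars at the mean of 2 libraries. The groups overlap in 8 genes, and HIST1H1E lies higher in both gel libraries (419 and 366 against 280 and 274).

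Per length, microRNA seed matches were few in the histone clusters of fluorescent AGO2. The search used the 15 seeds (bases 2 to 8) with most reads on mature microRNA arms in the fluorescent AGO2 libraries, which held 85.6% of 176835 such reads, and sites as the reverse complement on the strand of the cluster. Clusters of at least 20 bases outside short noncoding RNAs were searched. Per 1000 bases there were 0.610 and 0.661 sites in histone stem-loop clusters, 0.537 and 0.600 in other histone clusters and 7.88 and 6.11 in all other clusters at 0.15 and 1.5 U/ul. In the radiolabelled libraries stem-loop clusters had 1.93, 4.81, 0 and 0, other histone clusters had 1.77, 0.856, 0 and 0, against 5.18, 6.44, 8.50 and 12.4 in all other clusters. The values outside the stem-loop lay below those of all other clusters in each of the 6 libraries, but each histone value in fluorescent AGO2 rests on 1 cluster with a site. The 15 seeds were not ranked in the radiolabelled libraries and lack that of miR-16, so the values there hold for this list only. Counted by reads the order was another: clusters with a site held 9.54% and 7.61% of the fluorescent histone reads outside the stem-loop, against 7.82% and 7.46% of the reads of all other clusters. At the stem-loop they held 4.33% and 4.64% in fluorescent AGO2, and 33.5% in no-gel library B, against 20.3% there in all other clusters. Clusters differ in length and base composition between these sets, whose part in the difference was not tested.

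A pair of sites held many reads and are shown with the microRNA whose seed, in capitals, is complementary to the capitals of the site. The site in HIST1H3B lies in its start codon cluster, with 134 and 90 reads in fluorescent AGO2, where clusters placed on the mature arm of miR-140-3p had 0 reads at 0.15 U/ul and 1532 at 1.5 U/ul. The site in HIST1H2BK lies in the start codon cluster described above.
hsa-miR-140-3p: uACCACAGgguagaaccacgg
HIST1H3B, AGO2, chr6:26032055-26032084, minus strand: ggcaagcttttCTGTGGTtttgccatggct
hsa-miR-16-5p: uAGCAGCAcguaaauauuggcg
HIST1H2BK, AGO2, chr6:27146815-27146844, minus strand: ttttctcgatcTGCTGCTcgtctcaggctc
The mature sequences are RefSeq's (GRCh38.p14). The seed of miR-16 was not among the 15 and was looked at after its site was seen. Clusters that hold the start of a mature microRNA with this seed had 262 and 605 reads in fluorescent AGO2. In radiolabelled AGO2 they had 9814 and 7962 (no gel) and 1969 and 1296 (gel). Clusters with TGCTGCT, in HIST1H2BK and HIST1H1C, held 30.4%, 31.9%, 36.3% and 45.5% of the histone reads of radiolabelled AGO2, against 4.24%, 4.92%, 4.38% and 5.68% of the other reads. In fluorescent AGO2 clusters with these letters held 7.82% and 6.34%, against 1.84% and 1.41%, in genes named HIST1H2BB, HIST1H2BC and HIST1H2BK at 0.15 U/ul and HIST1H2AB, HIST1H2BB and HIST1H2BK at 1.5 U/ul. The stem-loop cluster of HIST1H1C, deposited as HIST1H2BB, gave 922 of the 1107 reads at 0.15 U/ul and 910 of the 1023 at 1.5 U/ul. HIST1H2BK gave 1.26% and 0.657% of the fluorescent histone reads, below the share of the other reads. A match says that the letters are present, and was not tested as a site.

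Genes that act on histone mRNAs and histone genes of the other kind were counted beside these. Of 20 genes for histone mRNA processing, transcription and decay, 2 and 4 had a cluster in fluorescent AGO2. In 3 of the radiolabelled AGO2 libraries 9 to 17 had one, and 2 in gel library B. The fluorescent libraries had 2425 and 2374 clusters of any gene, those 3 libraries 39070, 22573 and 6753, and gel library B 2305. Counts of genes with a cluster are therefore not comparable between libraries. The reads of these 20 genes in fluorescent AGO2 were almost all of RNU7-1, the U7 small nuclear RNA, with 302 and 765 reads (0.102% and 0.228%). No other library had a cluster of that name. SLBP itself had a cluster in 10 libraries. Of 12 replication-independent histone genes, most of whose mRNAs are polyadenylated, 3 had a cluster in each fluorescent AGO2 library (0.0676% and 0.0247% of reads), 2 to 11 in the radiolabelled ones (0.135% to 0.211%) and 8 in CPSF1 (0.0615%). H2AFX, whose mRNA can also end at a stem-loop, is in this list and held 157 of its 200 reads at 0.15 U/ul and 41 of 83 at 1.5 U/ul. In FUBP3 they held 0.176%, 0.203% and 0.158% and in KHSRP 0.0842%, 0.0812% and 0.0584%, above the replication-dependent genes of the same libraries, while in AGO2 and CPSF1 the replication-dependent genes held more.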

How the data were processed

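The 54 members and all gene lists were chosen with earlier results of these data known. The deposited files list clusters called per library, 17 files for 21 samples; the other 4 samples were not analysed here. The authors deposited raw counts of reads per cluster, counts of distinct sequences, and the converted fraction of each cluster. Per the submitters' processing notes, bcl2fastq 2.20.0, cutadapt 1.15 and hg38 were used. For the aligner and the cluster caller, no name is given in the sources used here. The 13 hg38 libraries agreed on 100% of overlapping bases, and the 4 gel-series libraries at 30.3% to 35.0%, so no coordinate of these is given.

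Reads were summed per gene (merged names split) over all reads in clusters. Clusters held at least 5 reads (4 in U2AF1), so weaker sites were not seen. Ratios used genes with at least 50 reads in each library. The gel comparison used edgeR 4.0.16 quasi-likelihood with TMM on genes with a cluster in each library and at least 10 reads. Genes were called at a Benjamini-Hochberg adjusted p below 0.05, with DESeq2 1.42.0 as alternative. Genes without a name (8.80% to 10.6% of reads) stayed out of the gel comparison. The edgeR fit was also run on counts simulated with a common dispersion for all genes. That run does not tell how large a change in a histone gene would have been called. Named were the 5 most read histone genes per library, the genes tested, and the ratios of at least 50 reads. Software was Python 3.11.15, pandas 2.3.3, scipy 1.17.1, matplotlib 3.10.9 and R 4.3.3.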

Additional observations from a re-analysis of the deposited data

How the results depend on the processing

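Depth sets what can be seen: U2AF1, KHSRP and the RNase T1 libraries had few histone reads, and all shares rest on reads in called clusters. Of 221 recomputed values over 45 results, 157 stayed on the same side of the threshold, moved by less than the stated error or, as counts, stayed within 1.5 times the main count. Genes not called could change sign within this: the log2 change with the gel ran from -0.28 to 1.12 for HIST1H2BC and from -0.86 to 0.41 for HIST1H2BD, neither past the threshold. In the gel comparison the 3 genes called became 53 with no filter on low counts, 5 with distinct sequences and 1 to 13 when 1 library was left out (13 and 12 without the libraries A and B of the no-gel group, 2 and 1 without those of the gel group, where the lone library is assumed to vary like the others). The replicate letters gave a correlation of deviations of -0.01, so no effect shared by letter was seen, though whether the libraries were paired is not known. With the replicate block 3 genes were called. No histone gene was called in any of these settings. The histone share, gel minus no gel, was -0.0317 percentage points, ran from -0.0728 to 0.00951 with 1 library left out, was -0.143 with clusters of at least 10 reads and 0.291 without short noncoding RNA, where its sign turned. None of these can pass the test.

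The histone share by RefSeq spans was 5.15% and 5.23% in fluorescent AGO2, 0.524% in CPSF1, 0.0301%, 0.0461% and 0.0544% in FUBP3, 0.00691% and 0.00729% in KHSRP at 0.15 and 0.5 U/ul, and 0.168% and 0.0597% in U2AF1; by deposited names it was 0.00445% and 0 for FUBP3 and KHSRP with RNase T1. With distinct sequences it was 5.37% and 5.60% in AGO2, 0.586% in CPSF1 and 0.0512% and 0.0583% in FUBP3 at 0.15 and 0.5 U/ul. With clusters of at least 10 reads, which also lowers the denominator, it was 4.89% in both AGO2 libraries, 1.17% in CPSF1, 0.0608%, 0.0663% and 0.0681% in FUBP3, 0.00934%, 0.00835% and 0.0606% in KHSRP and 0 in its RNase T1 library. Without short noncoding RNA it was 9.87% and 10.9% in AGO2 and 0.113% and 0.0489% in U2AF1.

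The linker share by RefSeq spans was 7.64% and 10.2% in fluorescent AGO2 and 1.97% and 6.26% in FUBP3 at 0.15 and 0.5 U/ul; with distinct sequences it was 9.97% in no-gel library A and 0.559% in CPSF1. The share at the 3' end, counted over clusters in place of reads, was 33.8% and 27.5% in AGO2, 30.0% in CPSF1, 4.92%, 7.35% and 25% in FUBP3 and 14.8% in KHSRP at 0.15 U/ul. With the last 100 nucleotides it was 7.52% in U2AF1 at 1.5 U/ml. Taken at the stem-loop it was 90.0%, 92.4%, 82.2%, 45.8% (FUBP3, 1.5 U/ul), 8.33% and 6.19% (KHSRP), and at the stem-loop over RefSeq spans 90.4%, 92.9%, 80.6% and, in FUBP3, 15.8%, 12.0% and 59.6% and, in KHSRP, 18%, 10.6% and 14.5%, where the dose with the highest share changed. Where no reason is given, the cause was not tested.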
